A study of Mus musculus with 15 samples.

Results

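Microglial and inflammatory genes were followed in mouse cortex through 9 members: Csf1r, Cx3cr1, C1qa, C4b, Stat3, B2m, Ctsd, Cst3 and Vim. A listed transcript belonged to the group when its Ensembl identifier carried 1 of these names in the GENCODE annotation. All 9 genes were found, each with 1 listed transcript, among 10370 listed transcripts of 7740 named genes, and no member was absent. The rule matched names only, but the members themselves were chosen with earlier results of these data known.

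Microglia are the resident macrophages of the brain. They depend on signalling through the receptor Csf1r, read the neuronal chemokine fractalkine through Cx3cr1 and are the main source of complement C1q in the brain, which tags synapses and debris for removal. Inflammatory stimuli act on them and on astrocytes partly through the transcription factor Stat3, and reactive glia are known for raising complement C4, class I antigen presentation, lysosomal proteases and the intermediate filament vimentin.

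The samples were cortices of male C57BL/6 mice (C57Bl/6J in the study's methods) aged 12 weeks per the labels, taken 1 month after the procedure. The HF-HI group (high-frequency head impact, 8 mice) received repeated closed-head impacts under brief isoflurane anaesthesia on successive days. The 7 mice of the Sham group were not impacted, and isoflurane and handling were common to both groups. Whole cortex was sequenced, and in such bulk tissue fewer cells of a type and less RNA per cell cannot be told apart.

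The deposited table gave variance-stabilized values, called VSD below, which behave like log2 values at high counts and are compressed at low counts. On this scale a doubling from 250 normalized counts is 0.30 units and a doubling from 4000 is 0.78 units. Whole reads were recovered from every listed value, and the normalized counts below are those reads divided by the size factor of the library, a measure of its depth. The listed reads summed to between 3496103 and 10582858 per library. Depth was not balanced: the mean log2 size factor was 0.30 in Sham and -0.25 in HF-HI, which put HF-HI lower by a difference of -0.55 (two-sided permutation, exact, p = 0.0280). One library, HF-HI replicate 2, stood apart on the first principal component at 12.6, where the others lay between -3.35 and 0.721.

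Counts were made per transcript, so which transcript stood for a gene matters for reading its value. Only C1qa and B2m had a single annotated transcript. Stat3 had 14 annotated transcripts, of which ENSMUST00000127638 was the only one listed. Its coding sequence of 2310 bases is the full-length alpha form, and it differs from the shorter transcript ENSMUST00000103114 in an exon at chr11:100889478-100889590, on the minus strand. That exon is printed here, 5′ to 3′, because it is the stretch that tells the listed Stat3 transcript from its shorter partner, with capitals marking the 50 bases that the shorter transcript lacks. The length of this stretch is not a multiple of 3, so the reading frames of the 2 transcripts part after it. The stretch does not tell the listed transcript from ENSMUST00000092671, which also holds it. Of the listed coding bases that transcript lacks only 3, at chr11:100893074-100893076. Ctsd had 3 annotated transcripts, of which ENSMUST00000151120 was listed, and it differs from ENSMUST00000066401 in an exon at chr7:142377333-142377455, also on the minus strand. Capitals in the Ctsd line mark the 18 in-frame bases at the end of that exon that the other lacks.
Stat3 exon: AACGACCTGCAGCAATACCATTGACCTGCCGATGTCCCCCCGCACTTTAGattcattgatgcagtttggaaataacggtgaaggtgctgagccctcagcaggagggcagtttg
Ctsd exon: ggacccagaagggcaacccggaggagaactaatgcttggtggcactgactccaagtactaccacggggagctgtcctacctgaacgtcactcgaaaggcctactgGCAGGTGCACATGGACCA

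Over its whole length, 98.6% of the listed Stat3 transcript and 90.4% of the listed Ctsd transcript was shared with at least 1 other annotated transcript of the gene. For Cx3cr1 the share was 100%, so no base was particular to the listed transcript.

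The annotation places each of the members on a chromosome of GRCm38 (mm10), and each listed transcript is protein-coding. Csf1r lies at chr18:61105572-61131134, Cx3cr1 at chr9:120048683-120068296 and C1qa at chr4:136895917-136898803. C4b lies at chr17:34728380-34743882 and Stat3 at chr11:100886810-100939540. B2m, Cst3 and Vim share chromosome 2, at chr2:122147686-122153083, chr2:148871722-148875576 and chr2:13573952-13582826. Ctsd lies at chr7:142375911-142388038.

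Which of these genes differed between impacted and sham cortex after 1 month? At an adjusted p under 0.1 (limma, Benjamini-Hochberg over all transcripts) none of the members was called, nor was any of the 10370 transcripts (0%), and no adjusted value fell below 0.206. At an unadjusted p under 0.05 the fit called 1 of 9 members, Stat3, beside 916 transcripts or 8.83% of all, which is the share to read it against. The called shares by direction were 4.94% higher in HF-HI, the side on which Stat3 lay, and 3.9% lower. By sign alone, on VSD, 7 members had a lower mean in HF-HI and 2 a higher one, where 51.5% of all transcripts had a lower mean. By limma-voom and by normalized count C4b was on the other side, which gave 6 lower and 3 higher. The median VSD difference of the members was -0.02, and that of all transcripts was -0.0013. In the fit of reads summed per gene (limma-voom) Stat3 was also the 1 member at an unadjusted p under 0.05, beside 725 genes or 9.37%. No gene passed the adjusted threshold, the smallest adjusted p being 0.111. Each member had 1 listed transcript, so its sum per gene holds the same reads and is not a second measurement.

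**Figure D1:**
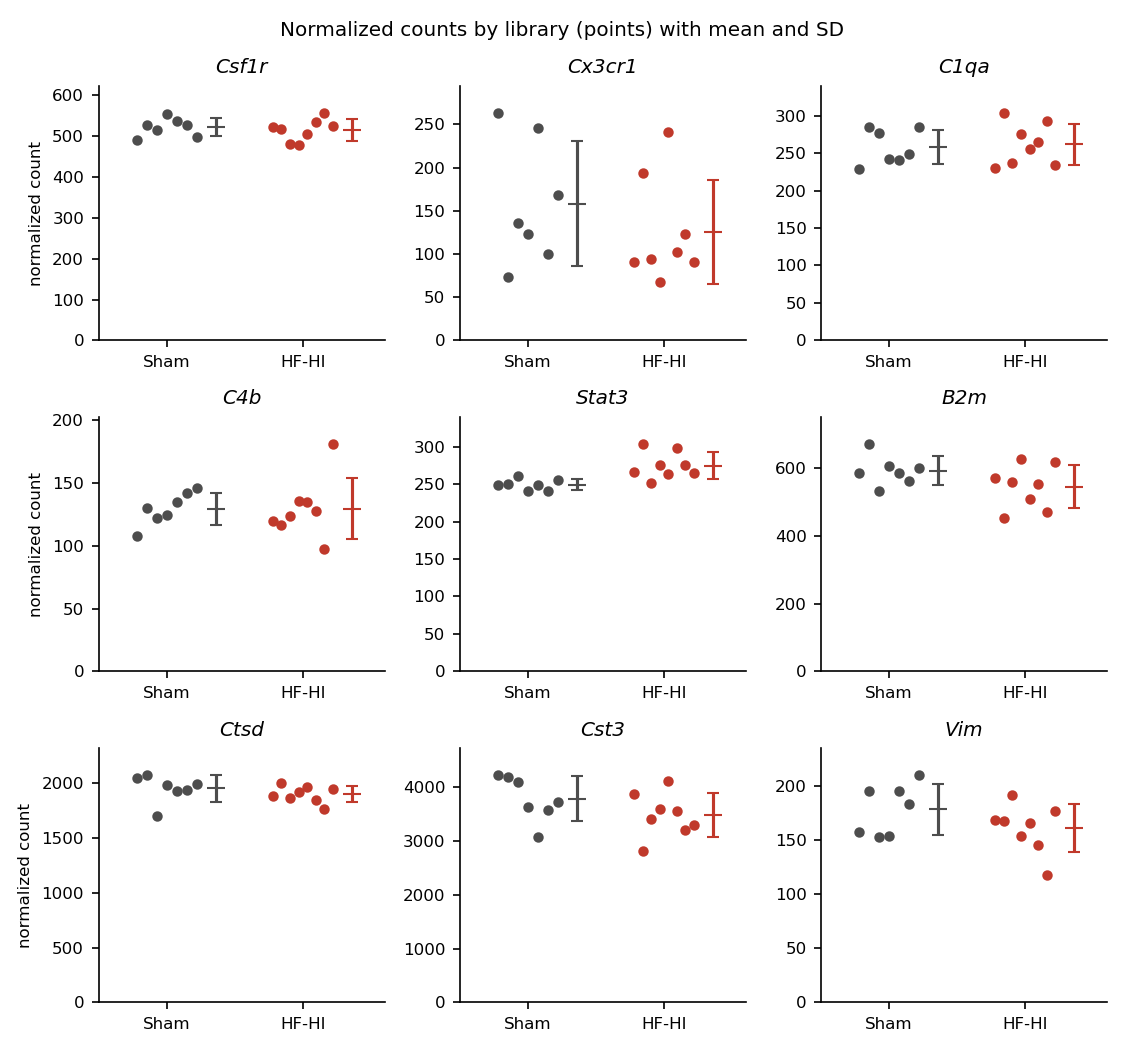
Normalized count of each member in the 7 Sham (grey) and 8 HF-HI (red) libraries, with the group mean and SD at the right of each set of points and the vertical axis starting at 0. The groups overlapped in every panel.

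Stat3 encodes the transcription factor that Janus kinases activate downstream of interleukin-6 family cytokines. Its normalized count ran from 240.2 to 260.5 in Sham (median 249), against 252 to 303 in HF-HI (median 271). All 8 HF-HI libraries were above the Sham median, which held for 3.8% of all transcripts. Of these libraries 7 were above every Sham library. For counts against every Sham library, here and for the other members, no share over all transcripts was computed. The mean was 249 ± 7.28 (SD, n = 7) in Sham and 275 ± 17.5 (SD, n = 8) in HF-HI, 10.3% higher. The VSD difference was 0.04 (95% interval 0.01 to 0.06, limma unadjusted p = 0.0119, adjusted p = 0.430), which ranked 288th of all transcripts by p. An exact two-sided permutation of the same difference gave p = 0.00155. Summed per gene, the log2 difference was 0.13 (0.03 to 0.23, limma-voom adjusted p = 0.400).

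The Stat3 values were among the least variable at their level. Their coefficient of variation within groups was 5.23%, where counting error alone would give 6.33%, and only 1.6% of the 1000 transcripts nearest in mean were as steady or steadier. Counting divided reads among the transcripts of a gene, and the part this played in the low spread was not tested.

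Stat3 also followed depth. Over the 15 libraries its log2 normalized count fell with log2 size factor (Pearson r = -0.77, permutation p = 0.00124, adjusted p = 0.0112 over the 9 relations computed, Spearman rho = -0.86, permutation p = 7.0e-05), and r was -0.86 without the 2 libraries farthest from the median depth. Within Sham r was -0.78 and within HF-HI -0.60. With log2 size factor in the model the log2 difference was 0.07 (-0.03 to 0.18) and limma-voom gave an unadjusted p of 0.161. Where the size factor was above 1, the mean was 247 in 6 Sham and 260.0 in 3 HF-HI libraries, values given without a test. Depth and group therefore moved together for this gene, and their parts in the difference cannot be told apart here.

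**Figure D2:**
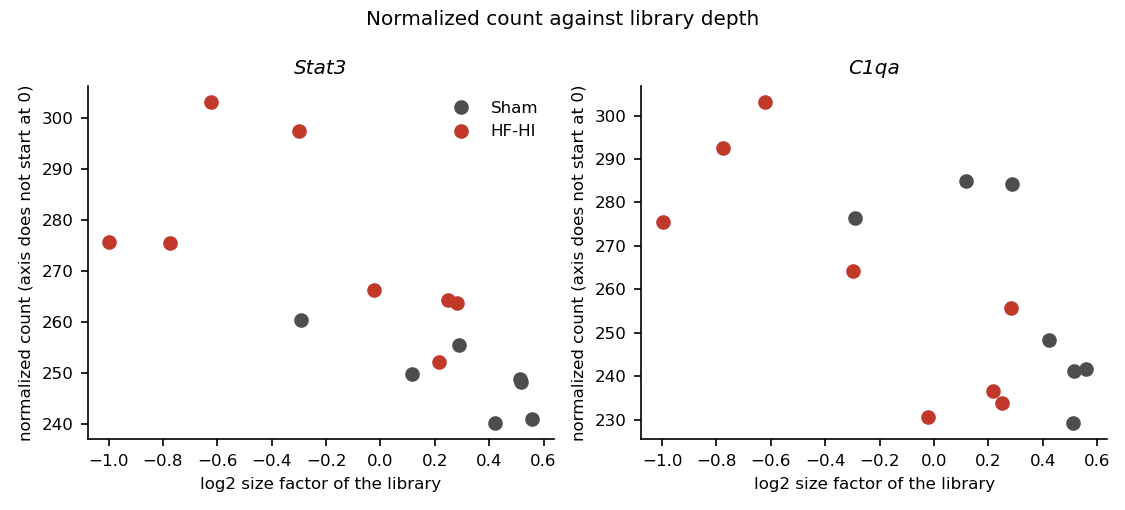
Normalized count of Stat3 (left) and C1qa (right) against the log2 size factor of each library, Sham in grey and HF-HI in red. Both genes were higher in shallower libraries, with r = -0.77 for Stat3 and r = -0.67 for C1qa over 15 libraries.

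C1qa was the only other member whose r with depth passed an adjusted p of 0.05. Its r was -0.67 (permutation p = 0.00613, adjusted p = 0.0276), and its rho of -0.55 did not pass (permutation p = 0.0352, adjusted p = 0.158). Without the 2 farthest libraries r was -0.64, with -0.74 within Sham and -0.81 within HF-HI. C1qa encodes a chain of complement C1q, the recognition unit of the classical pathway. Its normalized count ran from 229 to 285 in Sham (median 248) and from 231 to 303 in HF-HI (median 260.0). The ranges overlapped for 6 of 8 HF-HI libraries, and the means were 258 ± 23.2 (SD, n = 7) and 262 ± 27.4 (SD, n = 8). The log2 difference per gene was 0.00 (-0.15 to 0.15), and with depth in the model it was -0.12 (-0.26 to 0.01, limma-voom unadjusted p = 0.0715).

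Csf1r encodes the receptor for colony-stimulating factor 1, on which microglial survival depends. It ran from 491 to 555 in Sham (median 527) and from 479 to 556 in HF-HI (median 519.6), almost the same span. The means were 521 ± 21.9 (SD, n = 7) and 515 ± 25.9 (SD, n = 8), and the log2 difference was -0.02 (-0.10 to 0.06). A change of the mean beyond 0.930-fold or 1.05-fold lay outside that interval. Its coefficient of variation of 4.66% was close to the counting error of 4.51%, and only 1.6% of the 1000 nearest transcripts varied as little.

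Cx3cr1, the fractalkine receptor of microglia, was the opposite case. Its normalized count ran from 72.8 to 263 in Sham (median 136) and from 67.9 to 242 in HF-HI (median 98.3). High and low libraries occurred in both groups: Sham replicates 1 and 5 and HF-HI replicate 5 held the 3 highest values, and Sham replicate 2 and HF-HI replicate 4 the 2 lowest. The means were 158 ± 71.9 (SD, n = 7) and 126 ± 60.3 (SD, n = 8), and the log2 difference was -0.35 with an interval from -0.98 to 0.29 (limma-voom unadjusted p = 0.270). Single libraries moved it: it was -0.18 without Sham replicate 1, -0.20 without Sham replicate 5 and -0.55 without HF-HI replicate 5, and with depth in the model it was -0.12. These data could therefore not separate a fall to 0.506-fold from a rise to 1.23-fold. The coefficient of variation was 46.8% against a counting error of 8.65%, 5.41 times as large, and 90.3% of the 1000 nearest transcripts varied no more. All of its bases are shared with its other annotated transcripts, and the part that dividing reads among them played in this spread was not tested.

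**Figure D3:**
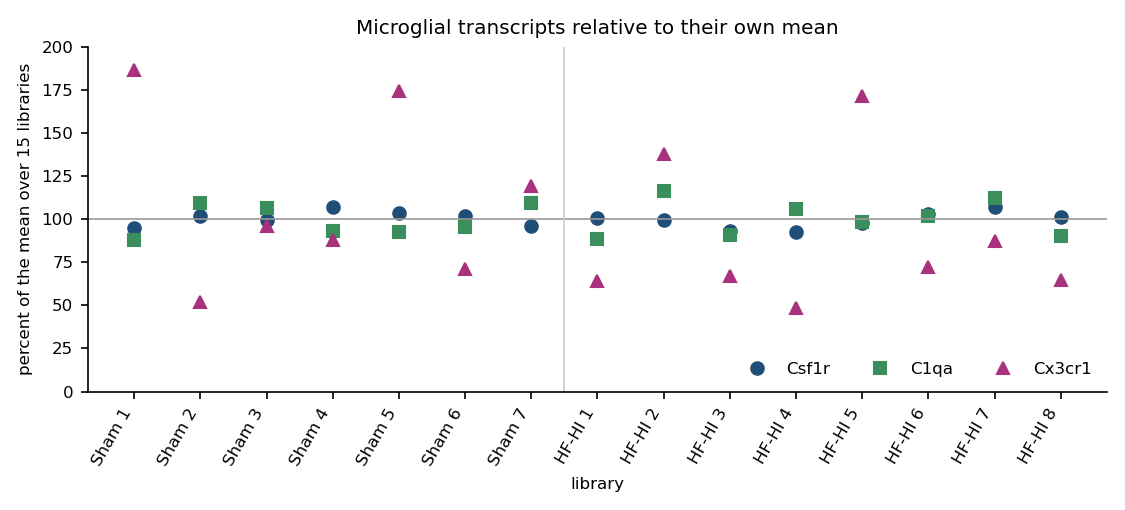
Normalized count of Csf1r (circles), C1qa (squares) and Cx3cr1 (triangles) in each of 15 libraries, as percent of the mean of that transcript, with Sham to the left of the vertical line and HF-HI to the right. Csf1r and C1qa stayed near 100% in both groups, while Cx3cr1 spread 3.87-fold between its lowest and highest library.

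The 3 microglial members did not vary as a block. Each was put on a standardized log2 scale and averaged per library, and the mean score lay between -0.27 and 0.50 in Sham against a span between -1.07 and 0.93 in HF-HI. Between the members r was 0.08 for Csf1r with C1qa, -0.02 for Csf1r with Cx3cr1 and -0.06 for Cx3cr1 with C1qa. The correlation of each with this average was 0.61 for Csf1r, 0.59 for C1qa and 0.53 for Cx3cr1. These values are raised by construction, because the average contains each member. The other C1q chains are not part of it, so their r is not comparable: 0.08 for C1qb and 0.02 for C1qc over the 15 libraries. The 5 transcripts of other genes most like this average among 10226 compared were Bax (r = 0.85), Tmem87a (0.81), Magt1 (0.80), Pitpnm1 (0.79) and S100a16 (0.78). These are the highest of many correlations over few libraries, which also share differences in depth, and they are given as a description only. Of 11 microglial markers 8 were listed and Aif1, Tmem119 and Trem2 were not. The summed normalized count of the 8 spanned 2410.5 to 2633 in Sham (median 2578) and 2276 to 2683 in HF-HI (median 2392). In HF-HI 5 of 8 libraries lay below every Sham library, while the highest sum of all belonged to HF-HI replicate 2. Of the 5, HF-HI replicate 6 was only just below, at 2409.7 against 2410.5 in Sham replicate 2. The other Sham libraries ran from 2537 to 2633. How often other sums give such a count was not computed. Members are 3 of these 8 markers, so no test is given. The part that library depth played in these sums was not tested. No marker of border macrophages (Mrc1, Cd163, Lyve1, Pf4 and F13a1) was listed.

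C4b encodes complement component C4, which acts directly after C1q. Its normalized count ran from 107.9 to 146 in Sham (median 130.0) and from 97.5 to 181 in HF-HI (median 126). The groups had the same centre, 129.6 ± 12.8 (SD, n = 7) and 129.7 ± 24.0 (SD, n = 8), with a wider span in HF-HI that came from its lowest and highest libraries, replicates 7 and 8. The log2 difference was 0.03 (-0.19 to 0.25, limma-voom adjusted p = 0.963). C4b has a close copy, C4a: of 5280 windows of 100 bases along C4b, 871 (16.5%) occur unchanged in an annotated C4a transcript. With windows of 31 bases the number was 2610 of 5349 (48.8%). No C4a transcript was listed, so the C4b count is uncertain to the extent that reads of the copy were assigned to it.

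B2m encodes beta-2 microglobulin, the invariant chain of class I histocompatibility molecules. It ran from 532 to 670.4 in Sham (median 587) and from 452 to 627 in HF-HI (median 557). In HF-HI 6 of 8 libraries lay below the Sham median and 3 below every Sham library. The means were 592 ± 42.8 (SD, n = 7) and 545 ± 63.8 (SD, n = 8), and the log2 difference was -0.12 (-0.26 to 0.02), which did not pass the test (limma-voom unadjusted p = 0.0851, exact permutation p = 0.121 on VSD). Without each library in turn the unadjusted limma p on VSD ran from 0.0460 to 0.226. The smallest came without HF-HI replicate 4, the highest of its group, and no adjusted p was below 0.553.

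The 2 most abundant members belong to the protease system of lysosomes. Ctsd encodes cathepsin D, an aspartic protease, and Cst3 encodes cystatin C, a secreted inhibitor of cysteine cathepsins. Ctsd ran from 1701 to 2068 in Sham (median 1982) and from 1764 to 1999 in HF-HI (median 1898). All 8 HF-HI values lay within the Sham range, although 7 of them were below the Sham median. The means were 1949.6 ± 121 (SD, n = 7) and 1896 ± 75.1 (SD, n = 8), with a log2 difference of -0.04 (-0.12 to 0.04). The Sham range was set by replicate 3 at 1701, since the other Sham libraries ran from 1929 to 2068. Without it the VSD difference was -0.04 (limma unadjusted p = 0.0392). That was the smallest p without each library in turn, the largest was 0.564, and no adjusted p was below 0.580. The Ctsd locus overlaps another protein-coding gene on the same strand, Gm49369, which had no listed transcript.

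Cst3 ran from 3083 to 4223 in Sham (median 3729) and from 2811 to 4112 in HF-HI (median 3483). Only 1 HF-HI library lay below the Sham range and 6 of 8 lay below its median. The means were 3790.3 ± 413 (SD, n = 7) and 3483 ± 405 (SD, n = 8), and the log2 difference was -0.11 (-0.27 to 0.05, limma-voom adjusted p = 0.715). Counting error was 1.70% at this depth, yet the coefficient of variation was 11.3%, 6.61 times as large, so the spread between libraries and not the number of reads set the width of this interval. Without each library in turn the unadjusted limma p on VSD ran from 0.0376 to 0.288. The smallest came without Sham replicate 5, the lowest Sham library, and no adjusted p was below 0.523.

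Vim encodes vimentin, an intermediate filament of reactive astrocytes, endothelium and meninges. It ran from 153 to 209.7 in Sham (median 184) and from 118 to 192 in HF-HI (median 167). In HF-HI 7 of 8 libraries were below the Sham median and 2 were below every Sham library. The means were 178 ± 23.4 (SD, n = 7) and 161 ± 22.3 (SD, n = 8), and the log2 difference was -0.11 (-0.31 to 0.09, limma-voom adjusted p = 0.773). It was -0.07 without Sham replicate 7 and likewise without HF-HI replicate 7, and -0.02 with depth in the model.

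**Figure D4:**
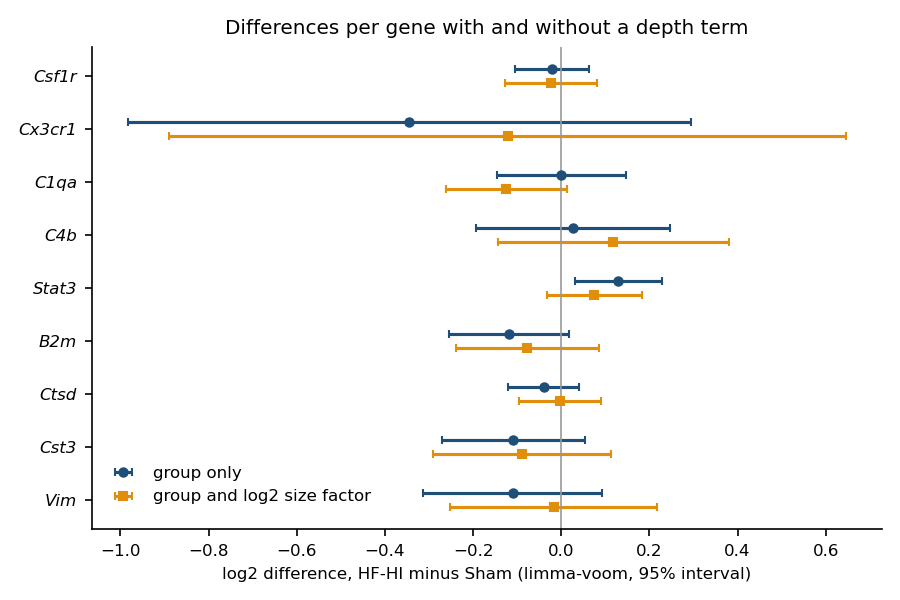
Log2 difference between HF-HI and Sham for each member with its 95% interval from limma-voom, from the model with group alone (blue circles) and from the model that adds log2 size factor (orange squares). With group alone the interval of Stat3 (0.03 to 0.23) was the only one clear of 0, and with the depth term every interval included 0.

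With depth in the model 0 of 9 members had an unadjusted p under 0.05 in either the transcript or the gene fit, where 5.14% of all transcripts did (533). The log2 difference per gene was then -0.08 for B2m, -0.0029 for Ctsd and 0.12 for C4b. Single libraries bore on several members. HF-HI replicate 2, the library apart on the first principal component, held the highest values of Stat3 and C1qa and the lowest of B2m and Cst3 among all 15. It also had the highest summed count of choroid plexus markers, 14140, where 11 of the libraries had between 2131 and 2549. Sham replicates 1 and 2 and HF-HI replicate 5 were likewise high, at 11397 to 13702, and the part of this signal in the members' values was not tested.

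Levels can be compared between genes only per length. In normalized counts per kilobase, averaged over 15 libraries, the order was Cst3 (4217 ± 494), Ctsd (903 ± 46.8), B2m (659 ± 67.9), C1qa (249.9 ± 23.7), Csf1r (134 ± 6.07), Vim (77.1 ± 10.8), Stat3 (58.2 ± 4.14), Cx3cr1 (37.5 ± 17.5) and C4b (24.1 ± 3.52), each ± SD. From Cst3 down to Vim each level was above the next in 15 of 15 libraries and the ranges did not overlap. Vim exceeded Stat3 in 14 libraries, Stat3 exceeded Cx3cr1 in 12 and Cx3cr1 exceeded C4b in 12, so these neighbours overlapped. The same order held for the Sham and the HF-HI means.

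Among the 36 pairs of members no correlation passed an adjusted p of 0.05 (permutation, Benjamini-Hochberg over the pairs), and 5 had an unadjusted p under 0.05. The values of r ran from -0.55 (Stat3 with B2m) to 0.59 (C4b with Vim), with a median of -0.06. For C4b and Vim the permutation p was 0.0229 and the adjusted p 0.347, rho was 0.52, and r was 0.78 within Sham, 0.57 within HF-HI and 0.48 without the 2 farthest libraries. Stat3 and C1qa, the pair that followed depth, had r = 0.52 (adjusted permutation p = 0.347). Their r was 0.62 within Sham, 0.74 within HF-HI and 0.26 without the 2 farthest libraries.

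The wider pathways of these genes were described from 8 lists, which cover 128 listed transcripts of 88 genes. In all 13 of them (10.2%) had an unadjusted p under 0.05 in limma, 7 higher and 6 lower in HF-HI, beside 8.83% of all transcripts, and none passed the adjusted threshold. The lists hold none of the members. With depth in the model 4 of the 128 transcripts had an unadjusted limma p under 0.05, where 5.14% of all transcripts did. These were 3 of the 13 (Lgmn, Tab2 and Ifnar1) and 1 that was not among them (Lifr).

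Of the microglial list 8 of 26 genes were listed, with 1 of 8 transcripts past the unadjusted threshold. It was P2ry12, the purinergic receptor that guides microglial processes, at 234 ± 22.6 (SD, n = 7) in Sham and 200.4 ± 31.8 (SD, n = 8) in HF-HI (limma adjusted p = 0.525). With depth in the model its VSD difference went from -0.05 to -0.02 and the unadjusted p was 0.436. None of 10 transcripts for ligands of microglial receptors passed, from 7 listed genes of 11. Of 27 complement genes 8 were listed, with 13 transcripts, of which 1 was lower. It was 1 of the 2 listed transcripts of Susd4, a membrane protein that restrains complement, at 130.3 ± 16.3 and 105.5 ± 22.97 (limma adjusted p = 0.533).

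The list of Janus kinases, STAT factors other than Stat3 and their receptors and inhibitors had 3 of 19 transcripts higher and none lower. Of its 33 genes 14 were listed. Jak1, a kinase of the interleukin-6 receptor, was 1422 ± 40.6 in Sham and 1483 ± 27.0 in HF-HI, and all 8 HF-HI libraries were above the Sham median (limma unadjusted p = 0.0232). For Jak2, another Janus kinase, 1 of 2 listed transcripts was called, at 161 ± 33.8 and 217 ± 58.5 (limma adjusted p = 0.525), with 6 of 8 HF-HI libraries above the Sham median. The other listed Jak2 transcript had means of 339.9 in Sham and 283 in HF-HI, and did not pass (limma unadjusted p = 0.0580). The third was Socs7, of the family of cytokine signalling suppressors, with means of 1141 and 1213 (limma unadjusted p = 0.0473). With depth in the model Jak1 and Jak2 were not under 0.05 (unadjusted p = 0.154 and 0.180). Lifr, the receptor of leukaemia inhibitory factor, was then under 0.05 (unadjusted p = 0.00302), at 621 ± 48.2 and 648 ± 48.5, although without the depth term its unadjusted p was 0.286. Socs7, Lifr and the other Jak2 transcript were picked after their values were seen.

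Of the class I antigen processing list 6 of 16 genes were listed, with 8 transcripts. Of these 1 was higher and 1 lower, and both came from Calr, the chaperone calreticulin of the peptide-loading complex. Its coding transcript was 1529 ± 69.4 in Sham and 1353 ± 142 in HF-HI (limma adjusted p = 0.405). Each of 8 HF-HI values was under the Sham median, a pattern whose share over all transcripts was not computed. The retained-intron transcript of Calr went the other way, from 106 ± 46.0 to 191 ± 96.9 (limma adjusted p = 0.530). With depth in the model neither was under 0.05 (unadjusted p = 0.0795 for the coding and 0.593 for the retained-intron transcript), and the VSD difference of the latter went from 0.16 to 0.03.

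The lysosomal list had 1 of 37 transcripts higher and 2 lower, with 30 of its 38 genes listed. Of Lgmn, for the protease legumain, 1 of 2 listed transcripts was higher, at 208 ± 66.3 in Sham and 272 ± 56.4 in HF-HI. M6pr, the receptor that sorts hydrolases to lysosomes, was 659.6 ± 45.3 and 605 ± 29.9. Of Psap, for the saposin precursor, 1 of 4 listed transcripts was lower, at 7534 ± 354 and 7130.4 ± 194. The other listed transcripts of Lgmn and Psap did not pass the unadjusted threshold. For M6pr and this Psap transcript each of 8 HF-HI values was under the Sham median. The share of all transcripts with that pattern was not computed. The named transcripts of Lgmn, M6pr and Psap had adjusted limma p-values of 0.561, 0.476 and 0.493. None of 24 transcripts for intermediate filaments and reactive glia passed the unadjusted threshold. Only 8 of the 33 genes of that list were listed, and Serpina3n, Lcn2, Cd44 and Timp1 were among those absent.

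In the list of NF-kB, interferon and cytokine signalling 2 of 13 transcripts were higher and 1 lower. Only 11 of its 52 genes were listed, and Il1b, Tnf and Ccl2 were among those absent. Tab2, an adaptor of the kinase Tak1, was 435 ± 53.5 in Sham and 487 ± 25.9 in HF-HI, and Ifnar1, a chain of the type I interferon receptor, was 302 ± 24.3 and 332 ± 23.7. Ikbkg, the regulatory subunit of the IKK complex, was 178 ± 56.8 and 120.0 ± 46.3. Their adjusted limma p-values were 0.514, 0.555 and 0.540. With depth in the model the unadjusted limma p was under 0.05 for Tab2 (0.0111, adjusted 0.858) and Ifnar1 (0.0245, adjusted 0.925).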

How the data were processed

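Cortical RNA of 15 mice was sequenced, aligned to mm10 with STAR and counted per transcript with eXpress, and the authors deposited 1 table of log2-like variance-stabilized values from DESeq2 (versions of STAR and eXpress are not given in the sources used here). From the deposited values whole reads and size factors were recovered: all values were whole multiples of 1 read within 0.1, a zero count being 9.81. No listed transcript had a mean below 107.9 normalized counts. The table gave no batch or date. Names and positions came from GENCODE M21.

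Python 3.11.15 (numpy 2.4.6, scipy 1.17.1, pandas 2.3.3, matplotlib 3.10.9) and R 4.3.3 were used. Two-sided limma 3.58.1 (moderated with a trend, group as the only term, Benjamini-Hochberg over all 10370 transcripts) was run on the deposited values, and limma-voom with TMM on reads summed over 7740 genes. Both were tested on simulated data. Intervals are 95%. Single values had exact permutation tests, and correlations 100000 permutations. Counting error means Poisson error of the recovered whole counts. It is a rough guide for transcripts that share bases, because eXpress divides reads among the transcripts of a gene. P-values measure only the spread between these samples. All members were named. From each pathway list the text names up to 2 transcripts with the smallest unadjusted p under 0.05 in each direction. The 5 transcripts closest to the microglial mean are also named. The members and lists were chosen with earlier results of these data known.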

Additional observations from a re-analysis of the deposited data

Results flagged for a closer look

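In 1 of 18 sets of values, the 9 members in each group, a library lay far from the rest by Dixon's criterion at 95%, a rate that chance gives in about 1 of 20 sets. It was Ctsd in Sham, where replicate 3 was lowest at 1701 normalized counts and the others ran from 1929 to 2068. Its gap to the next library was 0.635 of the whole range on the VSD scale, above the critical value of 0.568.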

How the results depend on the processing

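Stat3 had a higher mean in HF-HI under every alternative run. Its unadjusted limma p on VSD was under 0.05 in all but the model with depth, and without each library in turn it was 0.00633 to 0.0253. Depth as a covariate moved the most: 533 transcripts, 473 genes and 4 pathway transcripts had an unadjusted p under 0.05, and 0 members did in either fit. C1qa and C4b had differences near 0 whose sign turned. On VSD, C4b was 0.0044 after quantile normalization, C4b was 0.0045 and C1qa -0.0027 with library weights, C1qa was -0.032 and C4b 0.019 with depth, and C1qa was -0.0073 and C4b 0.051 by voom per transcript. Per gene, C1qa was -0.00078 with size factors in place of TMM, -0.016 with quality weights and -0.12 with depth, and C4b was -0.012 on log2 of the count plus 1 and -0.063 with the replicate block. Pathway transcripts under 0.05 numbered 6 by voom. Genes at an adjusted p under 0.1 numbered 1 with size factors, 1 with a minimum mean of 200 and 1 with quality weights.

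Without 1 library, transcripts at an unadjusted p under 0.05 numbered 748 to 987 and genes 618 to 813. Transcripts at an adjusted p under 0.1 numbered 0 to 1 (1 without Sham replicate 5, HF-HI replicate 2 or HF-HI replicate 5), and genes 0 to 12 (12, 7, 3 and 1 without Sham 4, Sham 5, HF-HI 5 and HF-HI 8). Members under 0.05 numbered 1 to 2 in both fits: Ctsd joined Stat3 without Sham 3, Cst3 without Sham 5, and B2m without HF-HI 4 on VSD or HF-HI 8 per gene. Pathway transcripts numbered 5 to 13 (5, 7, 8, 6 and 8 without Sham 1, Sham 2, Sham 3, HF-HI 4 and HF-HI 8). C1qa ranged from -0.0035 to 0.011 on VSD and -0.027 to 0.026 per gene, and C4b from -0.015 to 0.0089 and -0.062 to 0.067. Of the 12 pathway transcripts that the naming rule gave, the coding transcript of Calr and M6pr alone had an unadjusted limma p under 0.05 without each library in turn. The depth difference ranged from -0.65 to -0.44, and its exact permutation p exceeded 0.05 without Sham 1, 4 or 5 (up to 0.0539).

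Libraries with the same number did not pair: the correlation of their deviations ran from -0.14 to 0.09, and only replicate 4 of 7 matched its own number best. With the replicate block 891 transcripts, 691 genes and 1 member (Stat3) had an unadjusted p under 0.05. Transcript shares within a gene were not run, since each member had 1 listed transcript. C4b, Cx3cr1 and Vim gave no value with a minimum of 200 normalized counts. Correlation with depth and the values of libraries with a size factor above 1 were added after seeing the data. The cause of these changes was not tested. Depth limits the shallowest libraries most, where Cx3cr1 rested on as few as 34 reads.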
